A study of Mus musculus with 6 samples.

Results

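The 6 long non-coding RNA genes followed here in wild-type (WT) and Cd226-/- macrophages were Neat1, Malat1, Gas5, Snhg1, Snhg8 and Snhg12. They are 6 of the 46095 genes in the count table, picked by symbol after their difference between the genotypes had been seen, so that contrast is given for them as a description and without a test. All 6 passed the filter on low counts that left 13215 genes. The cells were bone marrow-derived macrophages of C57BL/6 mice at postnatal day 56, either WT or Cd226-/-, which lack the adhesion receptor CD226. In both genotypes marrow was cultured for 7 days with M-CSF at 20 ng/ml and the cells then received IFN-γ at 20 ng/ml with LPS at 100 ng/ml for 24 h, so no unstimulated cells entered the comparison. Each genotype had 3 libraries, and nothing in the labels ties them to separate mice or cultures. The p-values below therefore measure only the spread between these libraries, which may be technical.

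Neat1 and Malat1 are nuclear RNAs that lie side by side on mouse chromosome 19. Neat1 is the scaffold of paraspeckles, nuclear bodies that hold proteins such as NONO and SFPQ, and it is known to respond to innate immune stimuli. Malat1 collects in nuclear speckles, which store splicing factors. Gas5 and the Snhg genes are host genes: their introns release small nucleolar RNAs (snoRNAs), which guide the chemical modification of ribosomal RNA, while the spliced exons code for no known protein. Spliced Gas5 is known to accumulate when growth stops, to be removed by nonsense-mediated decay and to bind the glucocorticoid receptor.

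The genes sit at the following places of GRCm38, in the RefSeq annotation. Neat1 spans chr19:5824708-5845480 and Malat1 chr19:5795690-5802672. Snhg1 spans chr19:8723487-8726326 and holds 8 annotated snoRNAs. Gas5 (chr1:161034601-161038539) holds 8 as well, Snhg12 (chr4:132308678-132311024) holds 4 and Snhg8 (chr3:123507552-123508336) holds 1. Gas5 overlaps the protein-coding gene Zbtb37 by 264 bases at its 5' end. Strand use in the counting is not given in the sources used here, so reads in stretches shared with another gene cannot be assigned to Gas5 with certainty.

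The stretches around the annotated starts of the 4 host genes are shown because such genes are known for starts in a run of pyrimidines, the 5' terminal oligopyrimidine (TOP) element that ties a transcript to growth control. Each line gives 60 bases before to 40 bases from the start, 5' to 3', from RefSeq (GRCm38.p6). Capitals mark a C followed by at least 4 pyrimidines, where that C lies within 10 bases of the start. The stretches are chr1:161035106-161035205 (plus strand, the downstream one of a pair of annotated Gas5 starts), chr19:8723427-8723526 (plus), chr3:123508297-123508396 (minus) and chr4:132308618-132308717 (plus).
Gas5 start: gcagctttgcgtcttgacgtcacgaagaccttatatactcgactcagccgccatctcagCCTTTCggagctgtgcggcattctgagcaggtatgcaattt
Snhg1 start: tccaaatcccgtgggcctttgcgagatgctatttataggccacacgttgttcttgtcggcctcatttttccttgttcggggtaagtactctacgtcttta
Snhg8 start: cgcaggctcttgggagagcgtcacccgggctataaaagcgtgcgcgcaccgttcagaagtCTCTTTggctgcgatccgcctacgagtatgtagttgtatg
Snhg12 start: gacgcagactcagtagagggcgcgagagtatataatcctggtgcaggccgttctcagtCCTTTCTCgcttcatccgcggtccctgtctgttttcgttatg
Of the starts shown, the run was found at those of Gas5, Snhg8 and Snhg12, and was 6, 6 and 8 bases long. Of 32851 RefSeq promoter windows of 300 bases, 30.7% hold such a run. The same 3 windows also have TATAA or TATATA on the gene's strand between 40 and 20 bases before the start, as do 3.73% of all windows, and 1.29% have both. In the 300-base windows, searched on both strands, the letters TGACGTCA occurred once, in that of Gas5 (1.79% of all windows hold them), CCAAT in that of Snhg8 (37.4%) and GGGCGG in those of Gas5, Snhg1 and Snhg8 (35.7%), while CACGTG occurred in none of the 4 (7.15%). The window of the upstream Gas5 start, at chr1:161034601, has GGGCGG but neither the run nor any of the other letters. These are letter matches only, and their part in the values below was not tested.

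A snoRNA from each of 3 hosts is shown to make plain what the introns encode. Snord47 (Gas5, chr1:161038082-161038158, plus strand) and Snord99 (Snhg12, chr4:132310691-132310764, plus) belong to the C/D class, and the capitals mark their C box, TGATGA, and D box, CTGA. Snora24 (Snhg8, chr3:123507937-123508066, minus) belongs to the H/ACA class, and the capitals mark the ACA that stands 3 bases from its end. The sequences are those of GENCODE M21 on GRCm38.
Snord47: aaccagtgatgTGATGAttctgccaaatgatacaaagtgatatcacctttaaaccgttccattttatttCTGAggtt
Snord99: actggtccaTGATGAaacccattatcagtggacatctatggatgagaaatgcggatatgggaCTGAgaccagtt
Snora24: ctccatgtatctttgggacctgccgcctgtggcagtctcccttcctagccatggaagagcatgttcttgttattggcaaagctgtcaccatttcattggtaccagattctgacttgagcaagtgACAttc
The libraries said almost nothing about these products. The 123 snoRNA and small Cajal body RNA rows took 0.0013% to 0.0017% of each library's counts. Over all 6 libraries together Snord47 had 6 counts, Snord99 had 21 and Snora24 had 0. Of the 8 snoRNAs annotated in Gas5 only Snord47 had a row under its symbol, and of the 8 in Snhg1 only Snord22. Whether reads of the others were counted with their hosts is not known. The counts of the host genes are read here as spliced or unspliced host transcripts, and nothing is read from them about the snoRNAs.

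The 3' end of Malat1 is shown because it bears on what its counts can mean. The line gives the 100 bases before the tRNA-like mascRNA in lower case and the mascRNA itself, 58 bases at chr19:5795924-5795981 on the minus strand, in capitals (GENCODE M21 transcript, RefSeq position of the mascRNA).
Malat1 3' end: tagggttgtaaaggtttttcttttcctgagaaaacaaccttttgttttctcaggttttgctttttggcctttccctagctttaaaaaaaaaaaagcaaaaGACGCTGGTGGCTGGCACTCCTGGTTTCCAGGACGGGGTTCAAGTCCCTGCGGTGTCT
Of the last 20 bases before the mascRNA, 16 are A. The mature Malat1 ends there after mascRNA is cut off, without an added poly(A) tail, and the long form of Neat1 is known to end in the same way. Whether the libraries were made by poly(A) selection is not given in the sources used here.

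Library totals ran from 16838527 to 21658061 counts, and 1 count was worth 0.0452 to 0.0600 CPM, the unit used below. CPM scales counts to the library's total over the tested genes, multiplied by its normalization factor (TMM, 0.9624 to 1.022). Snhg8 and Snhg12 rest on 122 to 250 counts a library and Neat1 on 8619 to 22354, so counting error weighs more on the former. The macrophage markers were abundant, at 17900 to 20000 CPM in sum, and of these 8 genes 4 rose and 3 fell. Of 6 genes of the IFN-γ and LPS response 5 rose, where 16.1% of all tested genes were called higher and 14.8% lower. The 3 dendritic cell markers summed to 40.6 to 56.8 CPM in WT and 65.1 to 75.7 CPM in Cd226-/-, with 1 higher. T-cell and neutrophil marker sums overlapped between the genotypes. The 4 B-cell markers summed to 10.3 to 13.4 CPM in WT and 26.7 to 35.3 CPM in Cd226-/- and all rose. Fibroblast markers summed to 485 to 562 and 747 to 775 CPM, with 3 of 4 higher. Of the 4 hepatocyte markers all were at 0 in Cd226-/- replicate 1 and summed to at most 0.0584 CPM in WT, while Alb alone had 15.9 and 15.2 CPM in Cd226-/- replicates 2 and 3. The 4 erythroid markers were at 0 throughout. Xist counts were 64 and 156 in Cd226-/- replicates 2 and 3 and 0 elsewhere. The part of these differences in the values below was not tested, but log2 fold changes and counts of calls, not levels or profile distances, were also computed with replicates 2 and 3 of Cd226-/- left out. In bulk RNA a change in the cells present and a change in RNA per cell cannot be told apart. Cd226 itself had 5 to 23 counts in WT and 8 to 11 in Cd226-/-, too few to check the genotype labels.

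Neat1 had the largest log2 fold change of the 6. Its level was 491, 504 and 499 CPM in the WT libraries and 1232, 1122 and 1167 CPM in the Cd226-/- libraries, each in the order of replicates 1 to 3, as below. The 3 WT libraries lay within a narrow band (coefficient of variation 1.3%) and every Cd226-/- library was at least 2.23 times as high as the highest of them. The mean went from 497.8 ± 6.43 to 1174 ± 55.5 CPM (SD, n = 3), a fold of 2.36 (log2 fold change 1.24 ± 0.051 (SE)). Of the tested genes, 2.17% had a higher log2 fold change. On Cd226-/- replicate 1 alone, in which the hepatocyte markers are at 0, it was 1.31.

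Malat1, its neighbour, was higher as well but by less. It had 637, 602 and 618 CPM in WT and 899, 746 and 902 CPM in Cd226-/-. The Cd226-/- libraries all lay above the WT libraries, and replicate 2 was the lowest of the 3. The means were 619 ± 17.7 and 849.2 ± 89.0 CPM (SD, n = 3), a fold of 1.37 (log2 fold change 0.46 ± 0.063 (SE)), and 12.7% of tested genes had a higher value. Without Cd226-/- replicate 2 the log2 fold change was 0.54. On Cd226-/- replicate 1 alone it was also 0.54.

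**Figure D1:**
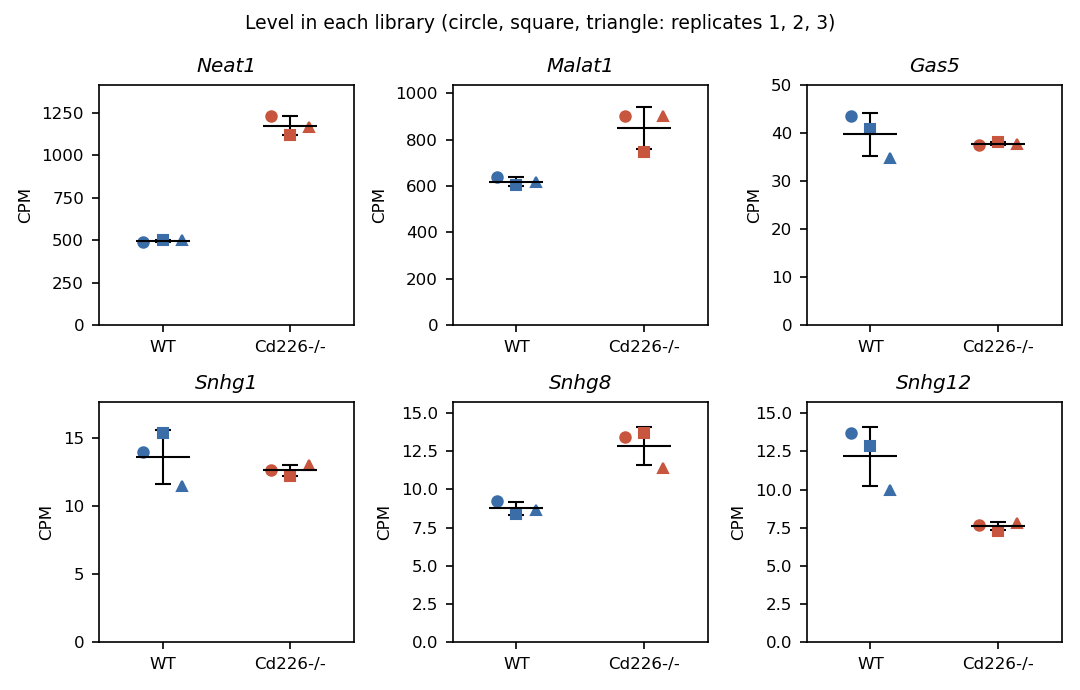
Level of each of the 6 transcripts in CPM (y axis, from 0) in the 3 WT (blue) and 3 Cd226-/- (red) libraries; bars are the mean ± SD. Neat1, Malat1 and Snhg8 are higher and Snhg12 lower in all 3 Cd226-/- libraries, while Gas5 and Snhg1 overlap.

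The pair did not keep its proportion. Neat1 had 0.770, 0.837 and 0.807 reads for each Malat1 read in the WT libraries, and 1.37, 1.503 and 1.294 in the Cd226-/- libraries. This ratio is taken within a library and so does not depend on scaling between libraries. Malat1 had the more reads in every WT library and Neat1 in every Cd226-/- library. Together they took 0.112% to 0.115% of WT counts and 0.184% to 0.206% of Cd226-/- counts. Frmd8, a protein-coding gene beside the pair and a regulator of the TNF-releasing iRhom complex, had log2 fold change 0.05 ± 0.060 (SE) and did not pass (adjusted p = 0.555 in edgeR's quasi-likelihood test).

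Among the host genes Snhg8 was higher. It had 9.21, 8.41 and 8.64 CPM in WT and 13.4, 13.7 and 11.4 CPM in Cd226-/-. The groups did not overlap, with replicate 3 the lowest of the Cd226-/- libraries. The means were 8.753 ± 0.408 and 12.82 ± 1.25 CPM (SD, n = 3), a fold of 1.46 (log2 fold change 0.55 ± 0.12 (SE)). The nearest tested protein-coding genes on either side, Mettl14, a subunit of the RNA m6A methyltransferase, and the kinase gene Camk2d, had log2 fold changes of 0.00 ± 0.11 and 0.04 ± 0.066 (SE), with adjusted p = 0.998 and 0.710 (edgeR). They lie 121561 and 3087150 bases away.

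Snhg12 was lower. It had 13.7, 12.9 and 9.997 CPM in WT and 7.66, 7.31 and 7.84 CPM in Cd226-/-. WT replicate 3 was the lowest of its group but still above every Cd226-/- library. The means were 12.18 ± 1.94 and 7.607 ± 0.269 CPM (SD, n = 3), with a log2 fold change of -0.67 ± 0.14 (SE), and 4.30% of tested genes had a lower value. Without WT replicate 3 it was -0.80. Trnau1ap, a selenocysteine tRNA factor whose gene lies 738 bases away, had log2 fold change 0.06 ± 0.094 (SE), and Taf12, a subunit of the general factor TFIID, had -0.16 ± 0.088 (SE), with adjusted p = 0.678 and 0.186 (edgeR).

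The read ratio of Snhg8 to Snhg12 also differed. Snhg8 had 0.672, 0.655 and 0.864 reads for each Snhg12 read in WT and 1.75, 1.87 and 1.45 in Cd226-/-. The ratio was below 1 in every WT library and above 1 in every Cd226-/- library. It compares reads of genes of unequal length, and per length, as given below, Snhg8 was the higher in both genotypes.

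**Figure D2:**
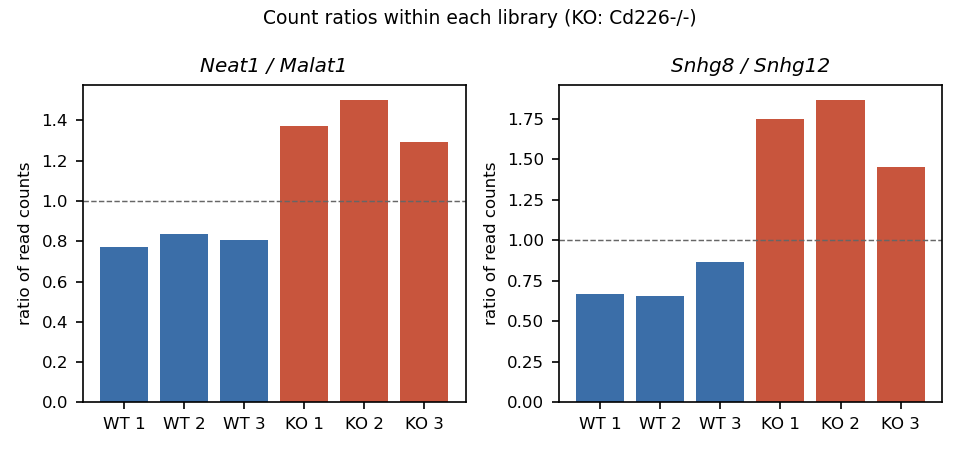
Read counts of Neat1 over Malat1 (left) and of Snhg8 over Snhg12 (right) in each library; the dashed line marks a ratio of 1. Both ratios are under 1 in the 3 WT libraries and over 1 in the 3 Cd226-/- libraries (KO).

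Gas5 and Snhg1 gave overlapping groups. Gas5 had 43.6, 40.8 and 34.8 CPM in WT and 37.5, 38.2 and 37.7 CPM in Cd226-/-. Its Cd226-/- values fell inside the WT range, and the spread was wider in WT (coefficient of variation 11%) than in Cd226-/- (0.90%). The log2 fold change was -0.07 ± 0.079 (SE), between 0.00 without WT replicate 1 and -0.16 without WT replicate 3. Zbtb37, the zinc finger gene that overlaps it, had 0.01 ± 0.13 (SE) and did not pass either (adjusted p = 0.971, edgeR).

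Snhg1 had 13.97, 15.4 and 11.5 CPM in WT and 12.7, 12.2 and 13.0 CPM in Cd226-/-. Again WT replicate 3 was the lowest of all 6 libraries and the Cd226-/- values lay inside the WT range. The log2 fold change was -0.10 ± 0.12 (SE), from -0.01 without WT replicate 2 to -0.22 without WT replicate 3. With these errors small differences in either gene were not detectable. The 4 hosts together had 80.5, 77.5 and 64.9 CPM in WT and 71.3, 71.4 and 69.9 CPM in Cd226-/-, overlapping groups. Slc3a2, which encodes the heavy chain of the amino acid transporter LAT1 and lies 117 bases from Snhg1, fell with log2 fold change -0.24 ± 0.053 (SE). It had 681, 669 and 690 CPM in WT and 620, 561 and 548 CPM in Cd226-/- (adjusted p = 0.0014, edgeR), and on Cd226-/- replicate 1 alone it did not pass (-0.13, adjusted p = 0.152, within a range of 2.20e-06 to 0.152 for its alternatives). The gene on the other side, Wdr74, a ribosome assembly factor, had -0.23 ± 0.096 (SE) and did not pass (adjusted p = 0.0709, edgeR, with 0.0275 to 0.246 over its alternatives, of which library size alone passed).

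In all, 4 of the 6 transcripts were called at the 0.05 threshold on edgeR's adjusted p, 3 higher and 1 lower, beside 30.9% of all tested genes (16.1% higher and 14.8% lower). The same 4 had groups that did not overlap, beside 44.3% of all tested genes (22.1% higher and 22.3% lower). Since they were picked on this contrast, nothing is read from these counts. The threshold lay between Malat1, Snhg8, Snhg12 and Neat1 on one side, at absolute log2 fold changes of 0.46 and more, and Gas5 and Snhg1 on the other. Scaled by library size alone, the split of all called genes moved from 2130 higher and 1956 lower to 1773 higher and 2764 lower. The 4 transcripts kept their directions under that scaling.

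Per length the order of the 6 changed between genotypes. On CPM per kilobase of merged exons of GENCODE's basic transcripts, the WT means were 88.6 ± 2.53 for Malat1, 46.7 ± 5.31 for Gas5, 24.0 ± 0.310 for Neat1, 15.7 ± 2.27 for Snhg1, 14.5 ± 0.675 for Snhg8 and 8.59 ± 1.37 for Snhg12 (SD, n = 3). Snhg1 and Snhg8 did not differ beyond their spread in WT. In Cd226-/- the order was Malat1 at 122 ± 12.7, Neat1 at 56.5 ± 2.67, Gas5 at 44.4 ± 0.401, Snhg8 at 21.2 ± 2.06, Snhg1 at 14.6 ± 0.457 and Snhg12 at 5.36 ± 0.190. The place of Neat1 rests on its length: the annotated forms reach 20771 bases, and if all its reads came from the short form of 3004 bases its level would be 166 ± 2.14 in WT and 391 ± 18.5 in Cd226-/-, above Malat1. Counts per gene do not separate the 2 forms.

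Genes with the most similar profile were sought over the 6 libraries, by the root-mean-square distance between log2 CPM values centred on each gene's mean, among the 8973 named genes whose mean reached 5 CPM. Nearest to Neat1 were the desaturase gene Scd2 (distance 0.048), the apolipoprotein gene Apoe (0.079) and the exonuclease gene Isg20 (0.086). Nearest to Malat1 were Hjurp, a centromere histone chaperone (0.030), the surface antigen gene Ly6a (0.056) and Ccnl2 (0.057), a cyclin that itself localises to nuclear speckles. Snhg8 was closest to Cope, a coatomer subunit (0.047), Dalrd3 (0.057) and Zbtb26 (0.060), and Snhg12 to Akr7a5, an aldehyde reductase (0.056), B3glct (0.058) and Map3k9 (0.075). Gas5 and Snhg1 lay 0.079 apart from each other, the smallest distance among the 6, while Neat1 and Snhg12 lay 0.96 apart. Single genes were nearer still to Gas5 (Nr2c1, 0.016; Clcc1 and Golga5, 0.026) and to Snhg1 (Nedd4, 0.036; Poldip2, 0.037; Fam110a, 0.038). With 6 libraries in 2 groups, this measure mostly reads the size of the genotype difference.

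Most other snoRNA host lncRNAs had negative values. Of 17 listed, 12 were tested, of which 1 rose and 3 fell, and 9 of 12 had negative values. Their median log2 fold change was -0.32, against -0.004 for all tested genes, and 33.3% were called, against 30.9%. Snhg11 rose: it had 70.1, 77.5 and 78.6 CPM in WT and 117, 127 and 136 CPM in Cd226-/- (log2 fold change 0.75 ± 0.062 (SE), adjusted p = 6.62e-09, edgeR). All 3 Cd226-/- libraries were above all WT libraries. Zfas1, another host of C/D snoRNAs, fell, from 53.8, 39.6 and 47.9 CPM to 32.4, 30.8 and 28.4 CPM (log2 fold change -0.63 ± 0.095 (SE), adjusted p = 8.38e-05). Its groups did not overlap either.

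Snhg6 and Snhg15 fell in the fit to all libraries, but 1 library could decide their calls. Snhg6 had log2 fold change -0.38 ± 0.11 (SE) with adjusted p = 0.0126 (edgeR), and its groups overlapped. It missed without WT replicate 1 (0.0917), Cd226-/- replicate 2 (0.0508) or replicate 3 (0.0753), and on Cd226-/- replicate 1 alone it was -0.17 (0.434), within a range of 7.31e-04 to 0.434. Snhg15 had -0.69 ± 0.25 (SE) with adjusted p = 0.042 (edgeR). It missed without WT replicate 2 (0.0606), WT replicate 3 (0.210), Cd226-/- replicate 2 (0.107) or replicate 3 (0.118), on Cd226-/- replicate 1 alone (0.284), by DESeq2's Wald test (0.0749), by limma-voom (0.0520) and with the replicate block (0.0558), within a range of 0.0278 to 0.284. Without Cd226-/- replicate 2, or without replicate 3, 2 of the hosts were called instead of 4. On Cd226-/- replicate 1 alone the low-count filter kept 15 of the hosts in place of 12, and their median was -0.08. This value and the median of -0.32 above therefore cover different sets of hosts.

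**Figure D3:**
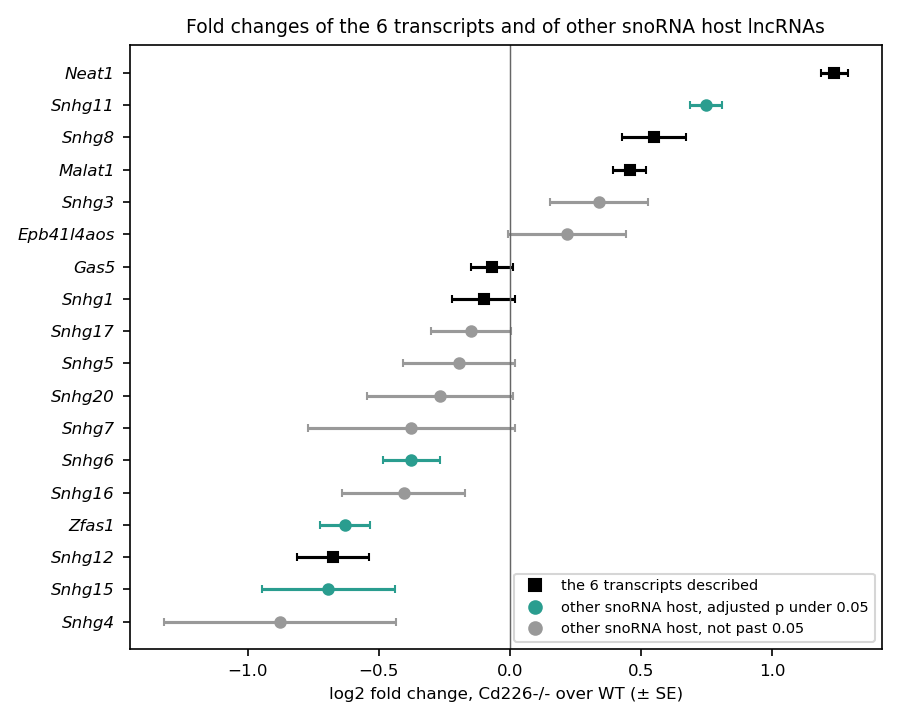
Log2 fold change of Cd226-/- over WT (x axis, ± SE) for the 6 transcripts (black squares) and the 12 other tested snoRNA host lncRNAs (circles, green where the adjusted p was under 0.05). Neat1 lies furthest right at 1.24; Snhg11 is the one other host that rose, and Zfas1, Snhg6 and Snhg15 fell.

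Protein-coding genes that carry snoRNAs in their introns split. All 23 listed were tested; 3 rose and 4 fell, with a median log2 fold change of -0.01. The share called, 30.4%, was near the 30.9% of all tested genes. Eef1b2 and Tpt1, a translation elongation factor and the tumour protein TCTP, rose by 0.50 ± 0.066 and 0.33 ± 0.050 (SE) on the log2 scale (adjusted p = 7.64e-06 and 2.69e-05, edgeR). Eif4a1, the RNA helicase of translation initiation, fell with -0.25 ± 0.050 (SE, adjusted p = 4.50e-04).

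Among the proteins that package snoRNAs, every call was toward lower values. Of 16 core proteins and assembly factors, 0 rose and 6 fell, with a median of -0.21 (37.5% called, against 30.9% of all tested genes). Nop58, which fell, is also counted among the protein-coding hosts above. Nolc1, a chaperone that brings snoRNPs to the nucleolus, went from 45.8, 44.8 and 43.5 CPM in WT to 32.0, 32.9 and 32.7 CPM in Cd226-/- (log2 fold change -0.46 ± 0.068 (SE), adjusted p = 2.15e-05, edgeR). The groups were far apart for their spread. Shq1 and Gar1, an assembly factor and a core protein of the H/ACA class, had -0.66 ± 0.16 and -0.43 ± 0.13 (SE, adjusted p = 0.00267 and 0.015). Gar1 missed without Cd226-/- replicate 3 (0.0547, over a range of 0.00764 to 0.0547), and whichever library was left out, 3 or 4 of the 16 were called instead of 6.

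Protein-coding TOP genes outside the ribosome were called toward higher values alone. Of 18 tested, 10 rose and 0 fell (55.6% called, against 30.9% of all tested genes), with a median of 0.19. By library size alone 7 rose. Eef1b2, Eef2 and Tpt1, the 3 protein-coding snoRNA hosts that rose, are on this list too and are counted again here. Apart from them, the intermediate filament gene Vim rose from 1576 ± 77.7 to 1985 ± 91.5 CPM (SD, n = 3, log2 fold change 0.33 ± 0.054 (SE), adjusted p = 5.46e-05, edgeR). Eef1b2 and Tpt1 have processed pseudogenes whose reads the counting could have mixed with theirs, which makes their values uncertain.

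Factors of nonsense-mediated decay, the pathway that removes spliced Gas5, gave few calls. Of 15 tested, 0 rose and 3 fell (20.0% called, against 30.9% of all tested genes), with a median of -0.07. These were Upf3a (-0.30 ± 0.089), Smg6 (-0.25 ± 0.077) and Smg5 (-0.17 ± 0.051, log2 fold change ± SE), with adjusted p = 0.0117, 0.0159 and 0.0162 (edgeR). The 3 calls were not held by every library: 1 was called without Cd226-/- replicate 2 or without replicate 3, and 0 on Cd226-/- replicate 1 alone.

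Of 13 paraspeckle proteins, the partners of Neat1, 3 rose and 0 fell (23.1% called, against 30.9% of all tested genes). Their median was 0.10 and their highest value 0.42. Pspc1, a core paraspeckle protein, had 14.7, 15.9 and 16.8 CPM in WT and 22.4, 22.7 and 18.6 CPM in Cd226-/- (log2 fold change 0.42 ± 0.10 (SE), adjusted p = 0.00313, edgeR), without overlap. Cpsf6, part of the cleavage complex known to favour the short Neat1 form, had 0.19 ± 0.058 (SE, adjusted p = 0.016, edgeR). It missed without WT replicate 2 (0.0759), WT replicate 3 (0.0552) or Cd226-/- replicate 3 (0.0779), over a range of 0.00584 to 0.189. Without WT replicate 2, or without WT replicate 3, 1 of the 13 was called. Cpsf6 also missed by library size alone, where 1 gene of the list was called higher and 1 lower. Nono and Sfpq, the other core proteins, had -0.03 ± 0.048 and 0.10 ± 0.054 (SE) and did not pass (adjusted p = 0.717 and 0.155, edgeR); Sfpq passed on Cd226-/- replicate 1 alone, within a range of 0.0209 to 0.488.

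Nuclear speckle and SR splicing proteins, which share their compartment with Malat1, went both ways. Of 17 tested, 4 rose and 3 fell (41.2% called, against 30.9% of all tested genes), with a median of 0.05. Srsf3 and Srsf2, SR proteins, fell with -0.31 ± 0.078 and -0.20 ± 0.052 (SE), and the spliceosome subunit gene Sf3b1 had 0.19 ± 0.051 (SE), with adjusted p = 0.00392, 0.00534 and 0.00754 (edgeR). Sf3b1 missed without Cd226-/- replicate 3 (0.0600, over a range of 9.37e-05 to 0.301), where 4 of the list were called. On Cd226-/- replicate 1 alone these 3 genes did not pass (0.138, 0.244 and 0.301).

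Other long non-coding RNAs of known name included several that LPS is known to induce. Of 26 listed, 25 had a row and 19 were tested. Of these, 6 rose and 2 fell (42.1% called, against 30.9% of all tested genes), and the median was 0.28. Mir155hg, the precursor gene of the inflammatory miR-155, went from 28.7, 26.5 and 29.1 CPM to 49.9, 57.9 and 62.5 CPM (log2 fold change 1.01 ± 0.081 (SE), adjusted p = 4.38e-09, edgeR). All Cd226-/- libraries lay above all WT libraries. Ptgs2os2, known as lincRNA-Cox2, an LPS-induced RNA beside Ptgs2, had 13.6, 9.29 and 10.7 CPM in WT and 24.1, 22.7 and 23.7 CPM in Cd226-/- (1.07 ± 0.12 (SE), adjusted p = 3.51e-07). Mirt2, an LPS-inducible lncRNA, had 0.60 ± 0.097 (SE, adjusted p = 5.91e-05). Of the 2 that fell, Dleu2 had log2 fold change -0.70 (adjusted p = 0.00014, edgeR). Ptgs2os, a much scarcer transcript named after its value was seen, had the highest value of those called, 1.70 ± 0.36 (SE, adjusted p = 0.000926). The value of Neat1 lay between those of Ptgs2os and Ptgs2os2, and the differences between them were not tested.

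The glucocorticoid receptor, which Gas5 binds, and its known targets differed in both directions. Of 11 tested, 4 rose and 4 fell (72.7% called, against 30.9% of all tested genes), with a median of 0.11. The receptor gene Nr3c1 rose from 174.7, 170.5 and 170.5 CPM to 230, 217 and 224 CPM (log2 fold change 0.38 ± 0.048 (SE), adjusted p = 2.83e-06, edgeR). The metallothionein gene Mt2 and the annexin gene Anxa1 fell, with -0.87 ± 0.062 and -0.51 ± 0.067 (SE, adjusted p = 9.94e-10 and 3.93e-06). Metallothioneins also answer to zinc and oxidative stress, so the list is not specific to the receptor.

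**Figure D4:**
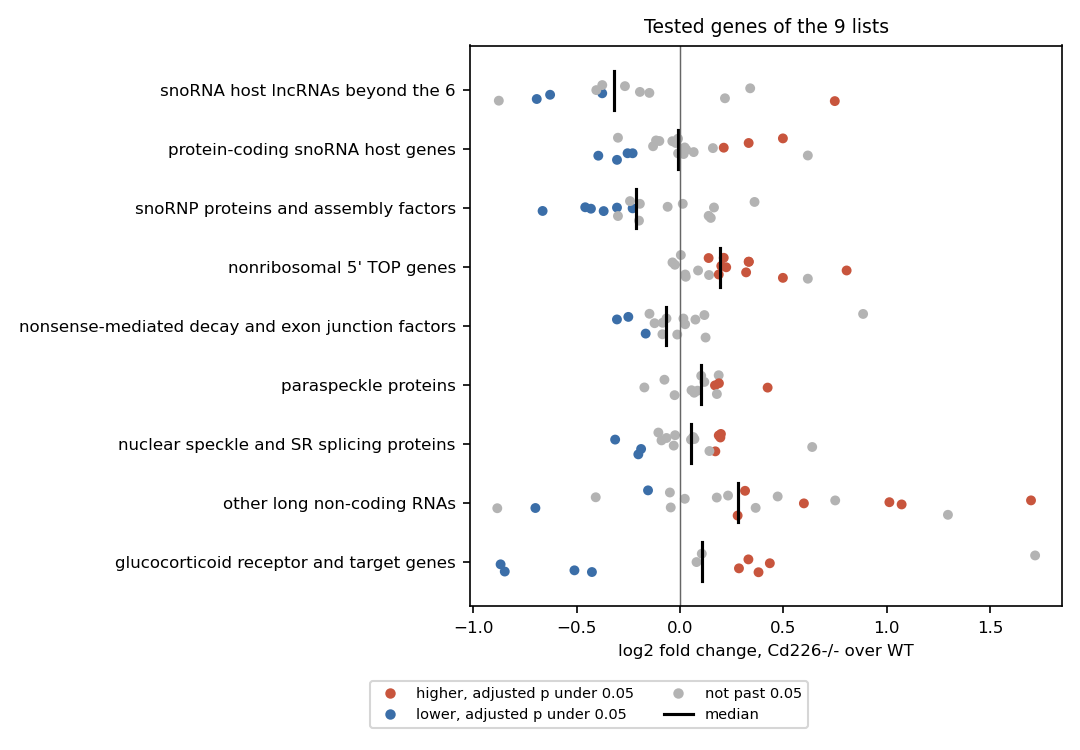
Log2 fold change of Cd226-/- over WT for every tested gene of the 9 lists (points; red higher and blue lower at adjusted p under 0.05, grey not past it; black line, median). The TOP genes lie mostly right of 0 with 10 higher and 0 lower, and the snoRNP proteins mostly left of it with 0 higher and 6 lower.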

How the data were processed

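Bulk RNA was sequenced from 6 libraries, 3 per genotype. What the authors deposited is a single table of raw read counts by gene symbol. The submitters' processing notes name HISAT2 and GRCm38; counter, annotation and strand use are not stated in them. Columns were matched to samples by title.

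The edgeR quasi-likelihood test (version 4.0.16, R 4.3.3; filterByExpr, TMM scaling, robust, two-sided, genotype as the only term) was run on 13215 genes, with Benjamini-Hochberg adjustment over all of them. The SE is the log2 fold change over the square root of F. The 6 transcripts and 9 lists (150 genes, 149 with a row, 6 found under another symbol) were chosen with earlier results of these data known. Named are the 6, the nearest tested protein-coding gene on each side, up to 3 called genes by p of each list and the 3 nearest profiles; Snhg15, Nono, Sfpq and Ptgs2os were added after their values were seen, and some genes under this rule are not reported here.

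Replicates differed by more than counting noise (chi-square per degree of freedom 2.17 to 7.75). Alternatives were DESeq2 (1.42.0) size factors and Wald test, library size alone, no filter, a minimum mean of 5 CPM, limma-voom (3.58.1), a replicate block, each library left out, and Cd226-/- replicate 1 alone, whose spread is assumed to be that of WT. In 5 simulated sets of this comparison 200 of 13215 genes were changed. The share recovered was 46.0% for a 1.25-fold change and 81.6% for a 2-fold change. Of the calls 8.23% were false, more than the adjusted p threshold of 0.05 aims at. Far more genes, 30.9%, were called in the data, so these shares may not hold there.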

Additional observations from a re-analysis of the deposited data

How the results depend on the processing

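The number of genes called ranged from 2957, with replicate 1 as the only Cd226-/- library, to 4537 by library size alone, around 4086. The values of the 6 transcripts under the alternatives are given as descriptions, since the transcripts were picked on this contrast. Their log2 fold changes moved by less than the spread between replicates except for Neat1, which was 1.18 by library size alone and 1.31 with Cd226-/- replicate 1 alone. Leaving out 1 library at a time gave 1.20 to 1.27 for Neat1, 0.41 to 0.54 for Malat1, 0.50 to 0.63 for Snhg8, -0.80 to -0.58 for Snhg12, -0.16 to 0.00 for Gas5 and -0.22 to -0.01 for Snhg1, and 3263 to 4379 genes called.

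With Cd226-/- replicate 1 as the only library of its genotype, 0 nonsense-mediated decay factors, 3 speckle proteins, 6 paraspeckle proteins and 2 other snoRNA host lncRNAs were called, and 5 nonsense-mediated decay factors were called by library size alone; the cause was not tested. Leaving out 1 library gave 1 to 4 decay factors, 4 to 7 speckle proteins, 1 to 4 paraspeckle proteins, 2 to 6 host lncRNAs and 3 to 4 snoRNP proteins. Without a filter, with DESeq2's Wald test and with the replicate block, 4 snoRNP proteins were called in place of 6. The replicate block gave 4137 genes, 4 of the 6 transcripts and 1.24 for Neat1. Deviations of same-numbered libraries correlated at 0.070, 0.011 and 0.0080. With 3 libraries per genotype, these values show no pairing by number but cannot exclude it. Depth limits the lowest hosts: 3 counts, an approximate and not absolute upper limit for a count of 0, are 0.136 to 0.180 CPM, for counting error only.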

Other observations

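Some list genes varied widely among the Cd226-/- libraries. The following were named after their values were seen. Counts are given for replicates 1 to 3 of WT and then of Cd226-/-. For Rack1, a ribosome-bound scaffold and snoRNA host, they were 1347, 1393 and 2076, then 3074, 1718 and 2025. The splicing factor gene Srsf1 had 89, 65 and 94, then 62, 125 and 170, and Smg8, a decay factor, had 15, 13 and 13, then 9, 21 and 41. The glucocorticoid target Fkbp5 had 2, 2 and 1, then 5, 17 and 35. Cd163, a scavenger receptor of resident macrophages, had 15, 15 and 17, then 9, 9 and 129. Rack1 was highest in Cd226-/- replicate 1, and Cd163 was high in replicate 3 alone. For Srsf1, Smg8 and Fkbp5, Cd226-/- replicates 2 and 3, the libraries with Alb and Xist counts, both exceeded every WT library; the part of those transcripts in these values was not tested. Of these genes Fkbp5 was too low to be tested, and the other 4 did not pass edgeR's test (adjusted p = 0.146 for Rack1, 0.166 for Srsf1, 0.154 for Smg8 and 0.395 for Cd163).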
